A study of Mus musculus with 8 samples.

Results

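Ribosome footprints were set against mRNA, gene by gene, in resting B cells from the mouse spleen. The comparison takes the 4 B cell libraries of a series of 8, with 2 libraries of footprints and 2 of RNA-seq, both numbered 1 and 3 by the submitters. All 4 come from B6 mice without a named genetic alteration. The total B cells of the spleen were separated magnetically and kept for 2 hours in complete RPMI medium before they were collected. Cells for footprints were then held in cycloheximide, a drug that stalls elongating ribosomes, at 100 µg/ml for 15 minutes, and nuclease was used to leave only the mRNA inside monosomes. The mRNA was read from a TruSeq RNA v2 library, a kit that selects polyadenylated RNA. The other 4 libraries hold T cells handled in the same way, and serve here only to ask whether a B cell value differs between the cell types. Total B cells are a mixture of subsets, and the protocols do not say whether a library holds 1 spleen or a pool. The question is which mRNAs carry many or few ribosomes for their abundance in a B cell that has not been activated.

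A footprint is the stretch of mRNA covered by a ribosome, so the footprint level of a gene counts ribosomes at work on its mRNA, and its ratio to the mRNA level is often called translational efficiency. Initiation sets most of this ratio. The best known class of mRNAs held back at that step encodes the ribosome itself and the factors of elongation. These transcripts begin with a cytosine followed by a run of pyrimidines, the 5′ terminal oligopyrimidine or TOP motif, and are translated when the kinase mTOR is active and withheld when it is not. A resting lymphocyte is small, makes little protein and keeps much of its ribosomal protein mRNA off polysomes until it is stimulated. Footprints fall on the coding sequence, while mRNA reads come from the whole transcript. The ratio of a gene therefore also moves with the share of its transcript that is coded, with mappability and with the removal of short fragments, and is used here to rank genes and not as an absolute rate.

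The footprint libraries 1 and 3 held 236810 and 232568 counts, and the RNA-seq libraries 1 and 3 held 9466190 and 8989740. A single count was worth 4.22 and 4.30 CPM (counts scaled to libraries of equal size) in footprints and 0.106 and 0.111 in RNA-seq, so that low footprint values rest on few counts. Of the counts in footprint libraries 1 and 3, snRNA and snoRNA genes held 2.76% and 10.6%, as against 0.009% and 0.008% of RNA-seq libraries 1 and 3. Markers of B cells, 15 genes with counts in all 4 libraries, summed to 64854 and 48413 CPM in footprints and 37785 and 29230 in RNA-seq. In mixed cells, fewer cells of a type and less RNA per cell cannot be told apart. T cell markers summed to 631 and 1071 CPM in footprints and to 380 and 1585 in RNA-seq libraries 1 and 3. Xist, which is transcribed from the inactive X chromosome of female cells, had 2362 counts in RNA-seq library 1 and at most 2 in each of the other 3. The Y-linked Ddx3y, Eif2s3y, Kdm5d and Uty had 8 counts together in RNA-seq library 1, 1616 in RNA-seq library 3, and 72 and 53 in footprint libraries 1 and 3. In these genes the 2 RNA-seq libraries differ from each other, so they do not come from the same animals, and the 2 libraries numbered 1 differ between the assays. For the footprint libraries nothing in the sources says that they come from separate animals, so a p-value here speaks only of the spread among these libraries, which in footprints may be technical. Levels below are CPM scaled by the TMM method, log2 differences are footprints over mRNA with their standard error, and n is 2 libraries per assay. Where a gene is said to overlap another annotated gene, its counts cannot be assigned with certainty, since the sources used here do not say whether counting used strand. Overlap was judged from RefSeq gene spans on either strand, so transcripts outside those spans were not considered.

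Of 7023 genes tested in edgeR, 1955 (27.8%) passed an adjusted p of 0.05. Of all genes tested, 914 (13.0%) were higher in footprints and 1041 (14.8%) lower, and 836 and 1008 of these by at least 2-fold. The shares of 13.0% and 14.8% are the background for the counts of called members in each list below. Genes were tested at a mean of at least 20 CPM over both assays. A gene under 20 CPM in 1 assay passed only through the other, so its direction was fixed. The middle of the distribution was narrow: the quartiles lay at -0.82 and 0.69 around a median of -0.02 on the log2 scale, while 5% of genes lay below -2.61 and 5% above 1.93. Among 6613 protein-coding genes 762 were higher and 900 lower. Across those genes the mean footprint level followed the mean mRNA level with a Spearman rho of 0.61, as a description over genes that share their libraries. Between the 2 libraries of an assay rho was 0.78 in footprints and 0.96 in RNA-seq. Where the mean of both assays was at least 100 CPM, in 1922 genes, rho between the assays was 0.37 and that between footprint libraries was 0.75. The log2 difference taken from each footprint library alone differed by a median of 0.58 between libraries 1 and 3 over protein-coding genes, and by less than 1 in 73.4% of them. Of the libraries left out 1 at a time, those of RNA-seq moved the number of calls most: 573 genes were called without RNA-seq library 1 and 813 without RNA-seq library 3, against 2296 without footprint library 1 and 2261 without footprint library 3. In each of these the assay left with 1 library is assumed to vary like the other. No gene called in the full comparison was called in the opposite direction in any of these.

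**Figure D1:**
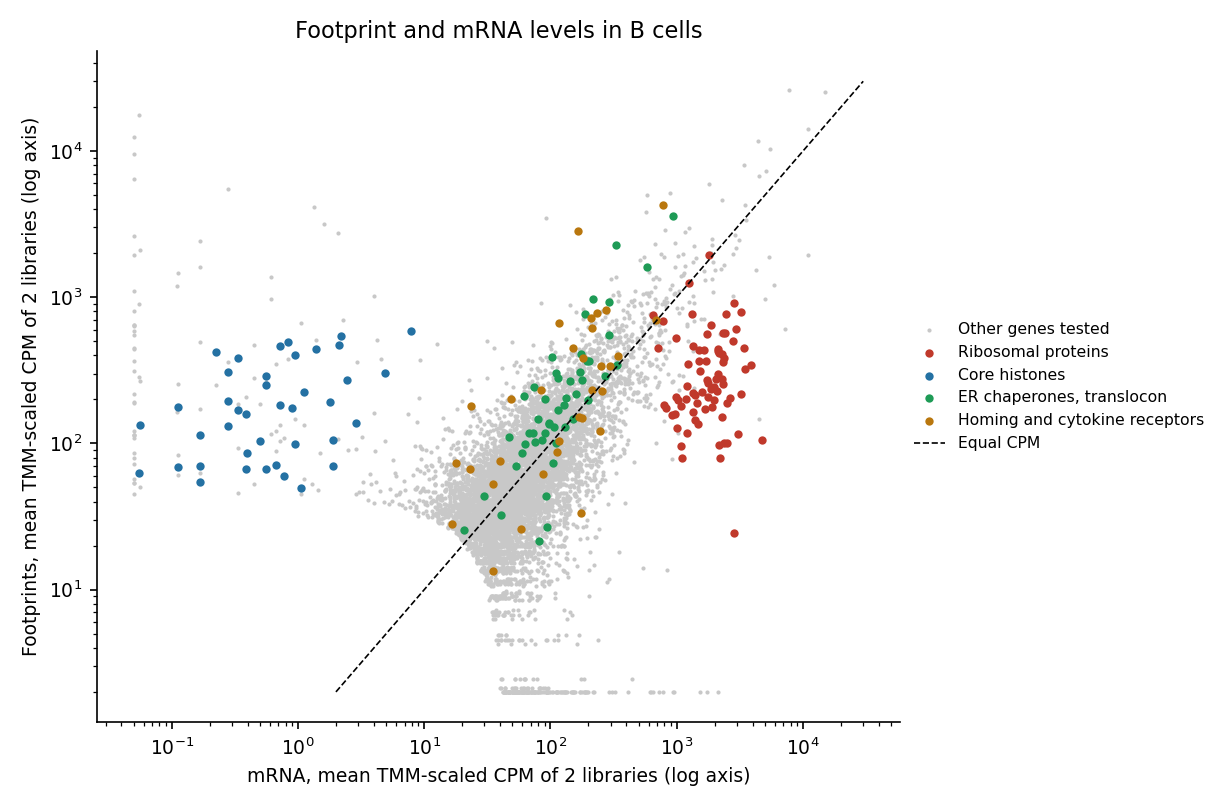
Mean footprint level against mean mRNA level of the 7023 genes tested, both in TMM-scaled CPM on log axes, with values under 2 CPM in footprints or 0.05 CPM in mRNA drawn at those limits. Most ribosomal protein genes lie to the right of the line of equal CPM, with high mRNA and few footprints, and the core histone genes lie far to its left.

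Ribosomal protein genes made up the largest block of mRNAs with few footprints. Of 79 listed, 76 were tested, 0 called higher and 68 lower, against 13.0% and 14.8% of all genes tested, and the median was -2.66 on the log2 scale against -0.02 over all genes. They took 2.24% and 2.7% of the counts in footprint libraries 1 and 3 but 14.8% and 13.1% in RNA-seq libraries 1 and 3. In 72 of the 76 both footprint libraries lay below both RNA-seq libraries, as in 36.5% of all genes tested. Rpl12, a protein of the stalk base of the large subunit, stood lowest (ENSMUSG00000038900, chromosome 2, 32961712 to 32964045 in GRCm38.p6), with 8 and 3 footprint counts and 27168 and 23663 RNA-seq counts. That is 33.9 and 14.6 CPM in footprint libraries 1 and 3 and 3046 and 2630.1 CPM in RNA-seq libraries 1 and 3, and a log2 difference of -6.84 ± 0.49 (adjusted p = 0.000964). Rpsa, a small subunit protein also known as a laminin receptor, had 76.2 and 136 CPM in footprint libraries 1 and 3 and 5007 and 4422 CPM in RNA-seq libraries 1 and 3 (-5.48 ± 0.46, adjusted p = 0.00145). Rps18 had 93.2 and 102 CPM in footprint libraries 1 and 3 and 2461 and 1837 CPM in RNA-seq libraries 1 and 3 (-4.46 ± 0.37, adjusted p = 0.00143). In none of these genes did the assays overlap. Among the stalk proteins, Rplp1 stood at -3.5 ± 0.48 and Rplp0 at -2.9 ± 0.35.

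The members were not alike. Rpl41, whose protein is the shortest of the ribosome, had 682 and 614 CPM in footprint libraries 1 and 3 and 2043 and 1710.4 CPM in RNA-seq libraries 1 and 3, a difference of -1.53 ± 0.30 (adjusted p = 0.0158). Rpl9 and Rpl36a, chosen after their values were seen, were the only 2 of the 76 with values above 0. Rpl9 had 541 and 328 footprint counts and 17267 and 15166 RNA-seq counts (0.10 ± 0.33, adjusted p = 0.841), and Rpl36a had 253 and 93 footprint counts and 6474 and 5174 RNA-seq counts (0.23 ± 0.44, adjusted p = 0.717). Ribosomal protein genes have many processed copies in the genome, and reads that match several places can be lost or split in a way that depends on their length. Of the 76, 62 have at least 1 pseudogene named after them in RefSeq, and their median was -2.80 with 54 called lower. The other 14 had a median of -2.20, and 14 were called lower. Copies with other names are not counted in this split. Over the 37 members that overlap no other annotated gene, the median was -2.61 and 32 were called lower. Rpl12 and Rpsa overlap another annotated gene. Rpl41 lost its call without RNA-seq library 1 or RNA-seq library 3 (adjusted p from 0.0588 to 0.151).

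**Figure D2:**
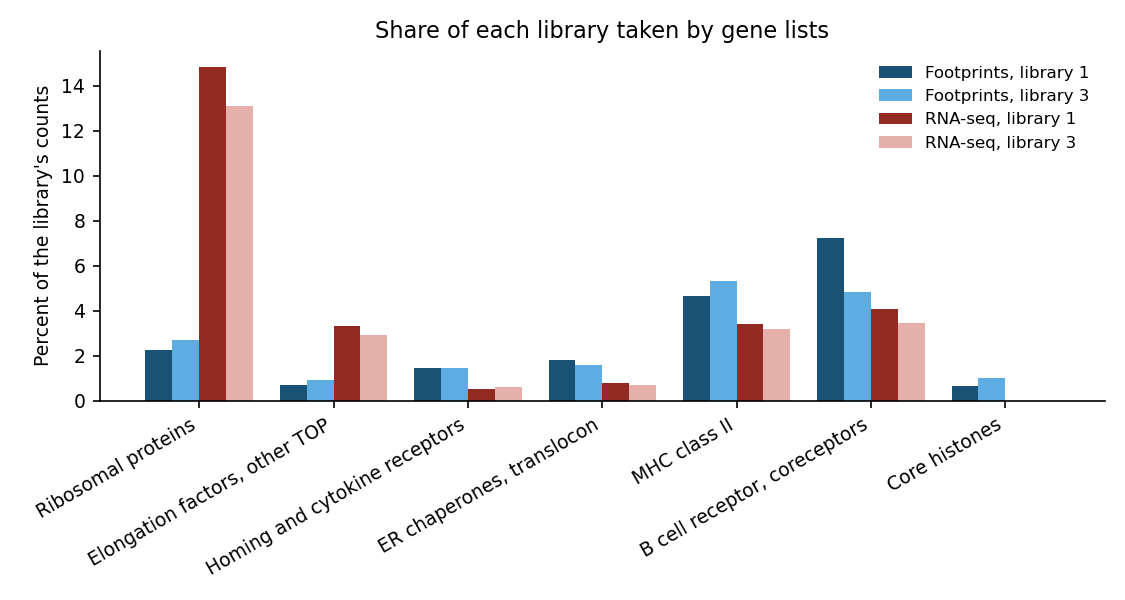
Share of the counts of each of the 4 B cell libraries, in percent, that went to 7 gene lists. Ribosomal protein genes took 14.8% and 13.1% of the RNA-seq libraries and 2.24% and 2.70% of the footprint libraries, and the endoplasmic reticulum and receptor lists took larger shares of the footprint libraries than of the RNA-seq libraries.

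The start of these genes was read from the RefSeq promoter table of GRCm38.p6, to show the pyrimidine run for which TOP mRNAs are named. The 30 bases below lie at or next to the annotated start and are printed 5′ to 3′ on the coding strand, with a cytosine and the pyrimidines that follow it in capitals where the run reaches 7 bases. Rps6, the small subunit protein phosphorylated below mTOR, Rack1, a scaffold on the small subunit, and Eef1a1 are members of the lists with the run; Cxcr4 and Hsp90b1, with many footprints, are shown for contrast. Rps6 and Rack1 were chosen after their values were seen. Rps6 had 32 and 54 footprint counts and 18829 and 16293 RNA-seq counts (-3.31 ± 0.41), and Rack1 had 157 and 285 footprint counts and 26431 and 23295 RNA-seq counts (-1.44 ± 0.43, adjusted p = 0.0512), was not called and overlaps another annotated gene. Rplp0 and Tpt1, at -2.9 ± 0.35 and -4.92 ± 0.47 also low, had no run of 7 bases near the annotated start.
Rps6 (chr4:86857347-86857376, minus strand): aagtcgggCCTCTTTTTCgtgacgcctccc
Rack1 (chr11:48800346-48800375, plus strand): ggaggccgCTCTTTCTTTTTCTCCacaggg
Eef1a1 (chr9:78481708-78481737, minus strand): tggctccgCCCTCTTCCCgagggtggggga
Cxcr4 (chr1:128592280-128592309, minus strand): cagaaacttcaattttgttgcctggtgcag
Hsp90b1 (chr10:86705425-86705454, minus strand): accgcgctgctggaggtgtgaggagcttag
The run begins 1 base before the annotated start in Rps6, 6 before in Rack1 and 5 before in Eef1a1, so annotated starts are only close to the cap. A C followed by at least 6 more C or T, on the coding strand and anywhere from 25 bases before to 50 after the start, was present in 45 of 56 ribosomal protein genes with a sequence (80.4%). It was present in 10 of 15 elongation and other TOP genes (66.7%) and in 1829 of 5321, or 34.4%, of all protein-coding genes tested with a sequence. With a run of 9 bases the shares were 71.4%, 40.0% and 17.7%, and with 5 bases 96.4%, 93.3% and 69.8%. The window and the lengths were chosen after the ranking was known, and a run is a match of letters only. With the 2 lists taken out, 31.1% to 40.4% of the genes in each of 10 equal groups along the ranking had the 7-base run, with 35.2% in the lowest group and 31.1% in the highest.

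Elongation factors lay between these genes and the rest of the ranking. Of 22 elongation factors and other mRNAs known for a TOP motif, 22 were tested and 11 were called lower, 0 higher, with a median of -1.15. Of all genes tested, 14.8% were called lower and 13.0% higher. Eef1a1, which brings aminoacyl-tRNA to the ribosome (ENSMUSG00000037742, chromosome 9, 78478453 to 78481724), was among the most abundant mRNAs, with 1592 and 2298 CPM in footprint libraries 1 and 3 and 12424 and 9446 CPM in RNA-seq libraries 1 and 3 (-2.49 ± 0.41, adjusted p = 0.00964). Eef2, the translocase, had 1063 and 2006 CPM in footprints and 4346 and 4081 in RNA-seq (-1.46 ± 0.41, adjusted p = 0.0441). Tpt1, the translationally controlled tumour protein, was named for the control of its mRNA at the ribosome. It had 24 and 40 footprint counts and 42575 and 37149 RNA-seq counts, which is 102 and 195 CPM in footprints and 4773 and 4129 in RNA-seq (-4.92 ± 0.47, adjusted p = 0.00223). Eef1g, a subunit of the exchange factor of elongation, stood at -3.12 ± 0.43 and Nsa2, a factor of large subunit assembly, at -2.88 ± 0.31. All 5 had both footprint libraries below both RNA-seq libraries, as did 36.5% of all genes tested. Eef2, Nsa2 and Tpt1 overlap another annotated gene. Eef1a1 lost its call without RNA-seq library 1 (adjusted p = 0.0772). Eef2 lost its call without RNA-seq library 1 or RNA-seq library 3 or footprint library 1 (adjusted p from 0.0556 to 0.236). For elongation factors and other TOP mRNAs, calls were 0 higher and 3 lower of 22 without RNA-seq library 1, 0 higher and 7 lower of 22 without RNA-seq library 3 and 0 higher and 17 lower of 22 without footprint library 3.

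Initiation factors as a list lay nearer the middle of the ranking. Of 31 tested, 2 were called higher and 6 lower, with a median of -0.34. The lower members included Eif4ebp2, which binds the cap factor eIF4E and blocks initiation when mTOR is off, at -2.37 ± 0.29 (adjusted p = 0.00437). Eif1, which guards start codon choice, had 165 and 326 CPM in footprints and 1449 and 1015 in RNA-seq (-2.33 ± 0.42), and Eif3m, a subunit of eIF3, stood at -2.05 ± 0.30. Eif1ax was higher at 1.03 ± 0.25 (adjusted p = 0.0295). Of aminoacyl-tRNA synthetases, 23 were tested, 3 called higher and 0 lower, against 13.0% and 14.8% of all genes tested, so the share called higher was that of all genes. Their median was 0.43, against -0.02 over all genes. Rars, the arginine enzyme, stood at 1.2 ± 0.28, Eprs, the enzyme for glutamate and proline, at 1.08 ± 0.28, and Eef1e1, a scaffold of the synthetase complex, at 1.57 ± 0.35. The mTOR pathway list, itself upstream of the TOP mRNAs, had 27 members tested, 2 higher and 7 lower. Akt2 had 6 and 8 footprint counts and 1140 and 1300 RNA-seq counts (-2.1 ± 0.33), Akt1 stood at -1.88 ± 0.34, Nprl3, which restrains mTOR when amino acids are short, at -2.33 ± 0.43, and Rraga, a GTPase that recruits mTOR to the lysosome, at 1.91 ± 0.26. Akt1, Eif3m and Nprl3 overlap another annotated gene. Akt1, Eif1ax, Nprl3 and Rars lost their calls without RNA-seq library 1 or RNA-seq library 3 (adjusted p from 0.0632 to 0.312). Akt2, Eif1, Eif3m and Rraga lost their calls without RNA-seq library 1 (adjusted p from 0.0547 to 0.0632). Eef1e1 and Eprs lost their calls without RNA-seq library 1 or RNA-seq library 3 or footprint library 1 (adjusted p from 0.0549 to 0.251). For translation initiation factors, calls were 0 higher and 1 lower of 31 without RNA-seq library 1, 0 higher and 5 lower of 31 without RNA-seq library 3 and 2 higher and 11 lower of 32 without footprint library 3. For aminoacyl-tRNA synthetases, calls were 0 higher and 0 lower of 23 without RNA-seq library 1, 0 higher and 0 lower of 23 without RNA-seq library 3 and 8 higher and 0 lower of 23 without footprint library 3. For mTOR pathway and TOP regulators, calls were 0 higher and 0 lower of 27 without RNA-seq library 1, 1 higher and 1 lower of 26 without RNA-seq library 3 and 5 higher and 6 lower of 26 without footprint library 1.

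Mitochondrial ribosomal proteins, which are not TOP mRNAs, were spread around 0. Of 77 listed, 64 were tested, 4 called higher and 6 lower, with a median of -0.18, so their calls in each direction were fewer than the 13.0% and 14.8% of all genes. Mrpl30 had 4 and 2 footprint counts and 735 and 682 RNA-seq counts (-2.54 ± 0.40), Mrpl47 3 and 3 footprint counts and 403 and 468 RNA-seq counts (-1.84 ± 0.40) and Mrps14 17 and 15 footprint counts and 266 and 289 RNA-seq counts (1.23 ± 0.27). Mrps25 had 2 and 1 footprint counts and 568 and 632 RNA-seq counts, a footprint level lower by a ratio of 9.86 (95% counting interval 3.37 to 47.8). The nuclear genes of oxidative phosphorylation had 75 tested, 13 higher and 4 lower, and a median of 0.17. Ndufa5 and Ndufa1, subunits of complex I, stood at 2.39 ± 0.28 and 1.87 ± 0.31, and Atp5j, of the ATP synthase, at 1.59 ± 0.24. Cox7a2l, which joins respiratory complexes, had 7 and 10 footprint counts and 3679 and 3317 RNA-seq counts (-3.33 ± 0.34, adjusted p = 0.00257). The 13 mRNAs of the mitochondrial genome had no count in any of the 4 libraries and are not described. Atp5j, Mrps25 and Ndufa1 overlap another annotated gene. Atp5j, Mrpl47, Mrps14 and Ndufa1 lost their calls without RNA-seq library 1 or RNA-seq library 3 (adjusted p from 0.0613 to 0.289). Mrpl30 lost its call without RNA-seq library 1 (adjusted p = 0.0777). For mitochondrial ribosomal proteins, calls were 0 higher and 1 lower of 64 without RNA-seq library 1, 0 higher and 2 lower of 64 without RNA-seq library 3 and 4 higher and 12 lower of 64 without footprint library 3. For nuclear-encoded oxidative phosphorylation, calls were 1 higher and 1 lower of 76 without RNA-seq library 1, 1 higher and 2 lower of 75 without RNA-seq library 3 and 13 higher and 8 lower of 75 without footprint library 3.

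Several mRNAs with a known switch in translation were also low in footprints. Ferritin mRNAs carry an iron-responsive element that iron regulatory proteins hold closed when iron is short. The light chain gene Ftl1 had 93.2 and 63.3 CPM in footprint libraries 1 and 3 and 1059 and 760.0 CPM in RNA-seq libraries 1 and 3 (-3.53 ± 0.37, adjusted p = 0.00273). The heavy chain gene Fth1 had 665 and 755 CPM in footprints and 1846 and 1435 in RNA-seq (-1.21 ± 0.31, adjusted p = 0.0325). Both had lower levels in each footprint library than in each RNA-seq library, as did 36.5% of all genes tested. Antizyme genes, whose full protein needs a frameshift that polyamines promote, were lower as well. Oaz1 had 182 and 253 CPM in footprints and 588 and 639.9 in RNA-seq (-1.5 ± 0.29), and Oaz2 rested on 2 and 2 footprint counts and 302 and 351 RNA-seq counts (-2.0 ± 0.48). Of the 15 iron and polyamine genes, 13 were tested, 0 called higher and 6 lower, against 13.0% and 14.8% of all genes tested. Their median was -1.0. Oaz1 overlaps another annotated gene. Fth1, Oaz1 and Oaz2 lost their calls without RNA-seq library 1 or RNA-seq library 3 (adjusted p from 0.0617 to 0.29). For iron and polyamine feedback mRNAs, calls were 0 higher and 1 lower of 13 without RNA-seq library 1 and 1 higher and 1 lower of 13 without RNA-seq library 3.

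Stress genes whose reading frame lies behind short upstream frames were split: of 12 tested, 1 was called higher and 5 lower, with a median of -0.12. Atf4, the transcription factor of the integrated stress response, had 11 and 32 footprint counts and 7588 and 4682 RNA-seq counts, which is 46.6 and 156 CPM in footprints and 851 and 520.4 in RNA-seq (-2.78 ± 0.56, adjusted p = 0.0164). Ppp1r15a, the subunit that ends this response, had 322 and 146 CPM in footprints and 1368 and 728 in RNA-seq (-2.15 ± 0.50, adjusted p = 0.025). Its neighbour in the pathway, Ddit3, rested on 5 and 3 footprint counts and 823 and 488 RNA-seq counts (-2.02 ± 0.51), and Gadd45g on 2 and 3 footprint counts and 714 and 525 RNA-seq counts (-2.61 ± 0.48). Counts are per gene, so footprints on an upstream frame and on the protein's own frame are added together. Hspa5, the main chaperone of the endoplasmic reticulum, was the member that was higher, with 3883 and 3311 CPM in footprints and 1262 and 607 in RNA-seq (1.94 ± 0.44, adjusted p = 0.0242). Selenoproteins, which read a stop codon as selenocysteine, had 14 tested, 0 higher and 2 lower. The 2 were the glutathione peroxidases Gpx4, with 5 and 4 footprint counts and 1074 and 1138 RNA-seq counts (-2.6 ± 0.32, adjusted p = 0.00456), and Gpx1, with 165 and 175 CPM in footprints and 292 and 349 in RNA-seq (-0.91 ± 0.25, adjusted p = 0.0421). Ddit3, Hspa5 and Ppp1r15a overlap another annotated gene. Atf4, Gadd45g and Ppp1r15a lost their calls without RNA-seq library 1 (adjusted p from 0.0591 to 0.12). Ddit3 lost its call without RNA-seq library 1 or footprint library 1 or footprint library 3 (adjusted p from 0.0688 to 0.222). Gpx1 lost its call without RNA-seq library 1 or RNA-seq library 3 or footprint library 1 (adjusted p from 0.053 to 0.383). Hspa5 lost its call without RNA-seq library 1 or RNA-seq library 3 (adjusted p from 0.0643 to 0.22). For stress mRNAs with upstream reading frames, calls were 0 higher and 0 lower of 12 without RNA-seq library 1. For selenoproteins, calls were 0 higher and 1 lower of 14 without RNA-seq library 1 and 0 higher and 1 lower of 14 without RNA-seq library 3. Stress mRNAs with upstream reading frames had a median of the other sign, 0.020 without footprint library 1.

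Receptors that guide and sustain B cells stood at the other end. Of 32 tested, 13 were called higher and 2 lower, against 13.0% and 14.8% of all genes tested, with a median of 0.65. Cxcr4, the chemokine receptor for CXCL12 (ENSMUSG00000045382, chromosome 1, 128588199 to 128592299), had 514 and 725 footprint counts and 1246 and 1710 RNA-seq counts. That is 2176 and 3530.4 CPM in footprint libraries 1 and 3 and 139.7 and 190.1 CPM in RNA-seq libraries 1 and 3, a log2 difference of 4.11 ± 0.42 (adjusted p = 0.00257). Both footprint libraries lay far above both RNA-seq libraries. Ccr7, which leads lymphocytes to T cell zones, was among the 10 protein-coding genes with the most footprints, at 4094 and 4441 CPM in footprints and 846 and 723 in RNA-seq (2.44 ± 0.33, adjusted p = 0.00589). P2ry10, a receptor for lysophospholipids, had 631 and 696 CPM in footprints and 124 and 111 in RNA-seq (2.5 ± 0.25, adjusted p = 0.00257), and Ccr6 stood at 2.95 ± 0.26. Among further members that were called, S1pr1, the sphingosine phosphate receptor of lymph exit, stood at 1.56 ± 0.25 and Cxcr5, the follicle homing receptor, at 1.73 ± 0.26. Both were named after their values were seen. Il10ra, a chain of the interleukin 10 receptor, was the lowest member, with 9 and 6 footprint counts and 1289 and 1858 RNA-seq counts (-2.37 ± 0.37, adjusted p = 0.00786). Over the 19 members that overlap no other annotated gene the median was 0.21, and 8 were called higher and 0 lower. Ccr6, Cxcr5 and Il10ra overlap another annotated gene. Ccr7 and S1pr1 lost their calls without RNA-seq library 1 or RNA-seq library 3 (adjusted p from 0.0505 to 0.118). Cxcr5 lost its call without RNA-seq library 1 (adjusted p = 0.109). For cytokine, homing and survival receptors, calls were 3 higher and 1 lower of 32 without RNA-seq library 1, 8 higher and 1 lower of 32 without RNA-seq library 3 and 11 higher and 4 lower of 31 without footprint library 3.

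The receptors of innate sensing held called members of both signs. Tlr9, the receptor for unmethylated DNA (ENSMUSG00000045322, chromosome 9, 106222598 to 106226876), had 462 and 536 CPM in footprint libraries 1 and 3 and 34.2 and 28.1 CPM in RNA-seq libraries 1 and 3 (4.0 ± 0.27, adjusted p = 0.000823). Tlr7, the receptor for single-stranded RNA, stood at 1.44 ± 0.24 (adjusted p = 0.0103) and Cd180, a relative of the Toll-like receptors on B cells, at 1.68 ± 0.29. Irak1, the kinase below these receptors, had 3 and 3 footprint counts and 1178 and 1093 RNA-seq counts (-3.22 ± 0.36, adjusted p = 0.00328). Of 13 tested, 3 were called higher and 2 lower, with a median of 0.00. Irak1 overlaps another annotated gene. Cd180 and Tlr7 lost their calls without RNA-seq library 1 or RNA-seq library 3 (adjusted p from 0.078 to 0.153). For Toll-like receptors and adaptors, calls were 1 higher and 2 lower of 13 without RNA-seq library 1 and 1 higher and 2 lower of 13 without RNA-seq library 3. Toll-like receptors and adaptors had a median of the other sign, -0.26 without RNA-seq library 1 and -0.037 without footprint library 1.

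The antigen receptor itself lay near the middle of the ranking. Of 25 genes of the receptor complex and its coreceptors, 25 were tested, 3 called higher and 4 lower, and the median was 0.27. Cd79a, a signalling chain, had 4988 and 3574 CPM in footprint libraries 1 and 3 and 3529 and 3459 CPM in RNA-seq libraries 1 and 3 (0.29 ± 0.35, adjusted p = 0.557), and Cd79b stood at 0.38 ± 0.40 (adjusted p = 0.50). Ms4a1, which encodes CD20, had 2286 and 1524 CPM in footprints and 996 and 1062 in RNA-seq (0.89 ± 0.33, adjusted p = 0.0917). Ighm, the constant region of IgM, had 14845 and 13669 CPM in footprints and 12628 and 9187 in RNA-seq (0.39 ± 0.40, adjusted p = 0.496) and Igkc, that of the kappa light chain, 30219 and 22025 CPM in footprints and 10774 and 4721 in RNA-seq (1.75 ± 0.54, adjusted p = 0.0566). None of these 5 passed the test. Plasma cell markers, which include secreted isotypes, summed to 11390 and 22945 CPM in footprint libraries 1 and 3 and to 7858 and 2290 in RNA-seq libraries 1 and 3, and their part in the immunoglobulin values was not tested. B cell receptor complex and coreceptors had a median of the other sign, -0.21 without footprint library 1.

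The surface proteins Cd72 and Cd24a were lower in footprints. Cd72, an inhibitory coreceptor, had 318 and 214 CPM in footprint libraries 1 and 3 and 536 and 548 CPM in RNA-seq libraries 1 and 3 (-1.02 ± 0.29, adjusted p = 0.0446), and Cd24a, a small anchored glycoprotein, stood at -1.11 ± 0.31. In signalling, of 38 tested, 6 were called higher and 5 lower, with a median of -0.05. Ptprc, the phosphatase CD45 that primes the receptor's kinases (ENSMUSG00000026395, chromosome 1, 138062859 to 138175756), had 5779.6 and 4529 CPM in footprint libraries 1 and 3 and 939.7 and 840.2 CPM in RNA-seq libraries 1 and 3 (2.53 ± 0.35, adjusted p = 0.00601). Pik3ap1, an adaptor of PI3 kinase, stood at 2.31 ± 0.37 and Cblb, a ubiquitin ligase that damps signalling, at 1.36 ± 0.24. Blk, a Src family kinase of B cells, stood at -1.42 ± 0.32 and Dgkz, which removes diacylglycerol, at -1.37 ± 0.29. Blk, Cblb, Cd72, Dgkz, Ighm, Igkc, Ms4a1 and Pik3ap1 overlap another annotated gene. Blk, Cblb and Dgkz lost their calls without RNA-seq library 1 or RNA-seq library 3 (adjusted p from 0.0703 to 0.159). Cd24a lost its call without RNA-seq library 1 or RNA-seq library 3 or footprint library 1 (adjusted p from 0.0554 to 0.304). Cd72 lost its call without RNA-seq library 1 or RNA-seq library 3 or footprint library 3 (adjusted p from 0.0502 to 0.243). Ptprc lost its call without RNA-seq library 1 (adjusted p = 0.074). For B cell receptor complex and coreceptors, calls were 0 higher and 0 lower of 25 without RNA-seq library 1, 0 higher and 0 lower of 25 without RNA-seq library 3 and 5 higher and 2 lower of 25 without footprint library 3. For proximal B cell receptor signalling, calls were 1 higher and 0 lower of 38 without RNA-seq library 1 and 2 higher and 1 lower of 38 without RNA-seq library 3. Proximal B cell receptor signalling had a median of the other sign, 0.056 without RNA-seq library 3 and 0.051 without footprint library 3.

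**Figure D3:**
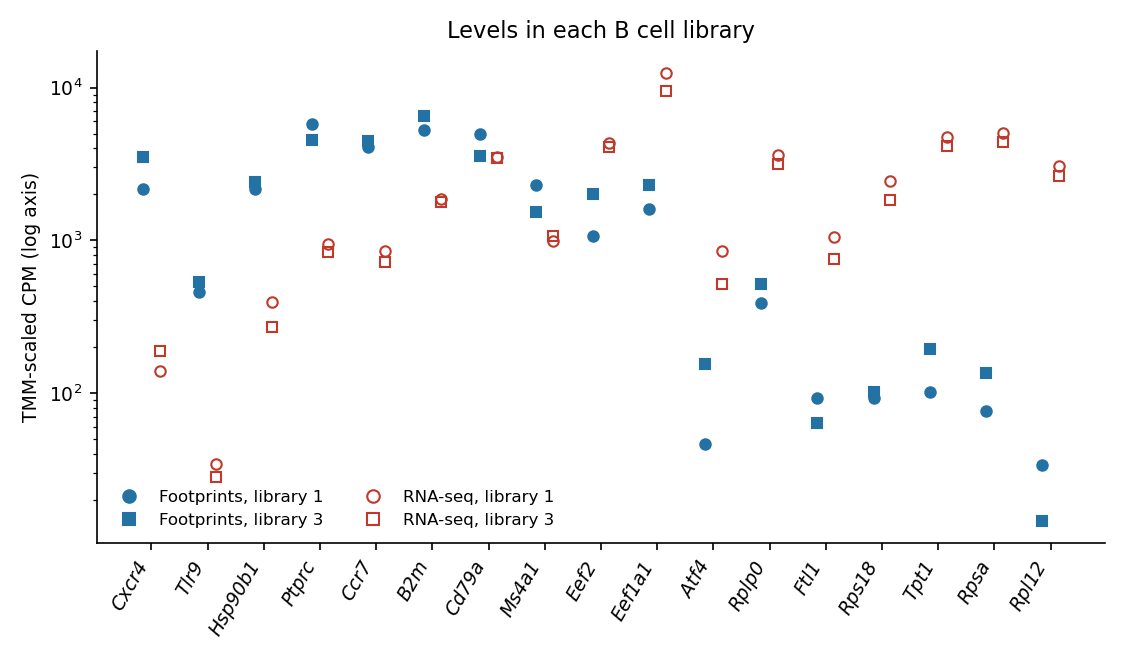
TMM-scaled CPM (log axis) of 17 genes in each of the 4 B cell libraries, filled blue for footprints and open red for RNA-seq, with circles for library 1 and squares for library 3. The assays are apart from Cxcr4 to B2m, close together in Cd79a and Ms4a1, and apart in the other direction from Eef2 to Rpl12.

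Antigen presentation through class II molecules was abundant in both assays. Of 13 tested, 1 was called higher and 1 lower, with a median of 0.07. Cd74, the invariant chain, had 20959 and 30069 CPM in footprints and 16225 and 13707 in RNA-seq (0.77 ± 0.43, adjusted p = 0.222). The class II chain genes H2-Aa, H2-Ab1 and H2-Eb1 stood at 0.92 ± 0.37, 0.53 ± 0.36 and 0.58 ± 0.35, and none passed the test. H2-Eb2 stood at 1.65 ± 0.29 (adjusted p = 0.0111) and Rfxank, a subunit of the factor that switches class II genes on, at -2.33 ± 0.54 from 6 and 1 footprint counts and 639 and 778 RNA-seq counts. In the class I list, of 19 tested, 5 were called higher and 4 lower, with a median of -0.44. B2m, the light chain of class I, had 5301 and 6520.3 CPM in footprints and 1861 and 1773 in RNA-seq (1.7 ± 0.34, adjusted p = 0.0169). The lectin Canx stood at 2.03 ± 0.34, the oxidoreductase Pdia3 at 1.67 ± 0.28 and the trimming peptidase Erap1 at 1.85 ± 0.24. Among the heavy chains, H2-T22 rested on 7 and 0 footprint counts and 2013 and 1970 RNA-seq counts (-3.82 ± 0.68), and the classical H2-K1 and H2-D1, chosen after their values were seen, stood at -0.33 ± 0.31 and -0.45 ± 0.31 and were not called. H2-T24 and H2-M3, heavy chain genes outside the list that were also chosen after their values were seen, had more footprint than mRNA CPM, with means of 117 against 31.8 and of 193 against 99.1. Class I heavy chain genes are near-identical copies, so reads shared between them make their values uncertain. B2m, Cd74, Erap1, H2-T22, Pdia3 and Rfxank overlap another annotated gene. B2m, Pdia3 and Rfxank lost their calls without RNA-seq library 1 or RNA-seq library 3 (adjusted p from 0.0642 to 0.214). Canx, Erap1 and H2-Eb2 lost their calls without RNA-seq library 1 (adjusted p from 0.0714 to 0.11). For MHC class II presentation, calls were 1 higher and 2 lower of 13 without footprint library 1. For MHC class I presentation, calls were 0 higher and 1 lower of 19 without RNA-seq library 1 and 2 higher and 2 lower of 19 without RNA-seq library 3. MHC class II presentation had a median of the other sign, -0.26 without footprint library 1.

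Genes of the secretory route and the lysosome leaned to more footprints. Of 51 endoplasmic reticulum chaperone and translocon genes, 49 were tested, 16 called higher and 1 lower, and the median was 0.60. Of all genes tested, 13.0% were called higher and 14.8% lower. Hsp90b1, the HSP90 of the endoplasmic reticulum that folds integrins and Toll-like receptors (ENSMUSG00000020048, chromosome 10, 86690841 to 86705444), had 2155 and 2406 CPM in footprint libraries 1 and 3 and 393 and 271 CPM in RNA-seq libraries 1 and 3 (2.78 ± 0.34, adjusted p = 0.00448). Sec62, which helps proteins enter the translocon, stood at 1.78 ± 0.23 and Hyou1, a large HSP70 relative, at 1.93 ± 0.29. Srpr, a subunit of the signal recognition particle receptor, was the called member that was lower (-1.09 ± 0.29, adjusted p = 0.0381). Of 21 lysosomal genes, 19 were tested, 9 called higher and 1 lower, and the median was 1.15. Lamp2, a protein of the lysosomal membrane, had 275 and 151 CPM in footprints and 42.6 and 40.3 in RNA-seq (2.37 ± 0.33, adjusted p = 0.00601). The proteases Ctse and Tpp1 stood at 1.84 ± 0.35 and 1.53 ± 0.29, and Hexa, a hexosaminidase, at -1.13 ± 0.31. Of proteasome subunits, 34 were tested, 6 called higher and 0 lower, a share called higher near the 13.0% of all genes tested, with a median of 0.31. Those called included Psmd1 at 1.77 ± 0.37, Psmc6 at 1.59 ± 0.23 and Psmc2 at 1.22 ± 0.26. Hexa, Lamp2, Psmd1 and Srpr overlap another annotated gene. Ctse, Psmc2, Psmc6 and Psmd1 lost their calls without RNA-seq library 1 or RNA-seq library 3 (adjusted p from 0.0655 to 0.239). Hexa and Srpr lost their calls without RNA-seq library 1 or RNA-seq library 3 or footprint library 1 (adjusted p from 0.0554 to 0.327). Hyou1, Sec62 and Tpp1 lost their calls without RNA-seq library 1 (adjusted p from 0.0606 to 0.157). For endoplasmic reticulum chaperones and translocon, calls were 1 higher and 0 lower of 49 without RNA-seq library 1, 5 higher and 0 lower of 49 without RNA-seq library 3 and 14 higher and 4 lower of 48 without footprint library 3. For lysosomal proteases and membrane proteins, calls were 1 higher and 0 lower of 19 without RNA-seq library 1 and 2 higher and 0 lower of 19 without RNA-seq library 3. For proteasome subunits, calls were 0 higher and 0 lower of 34 without RNA-seq library 1, 0 higher and 0 lower of 34 without RNA-seq library 3 and 9 higher and 2 lower of 34 without footprint library 3.

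Ubiquitin genes and conjugating enzymes went the other way. Of 24 tested, 3 were called higher and 10 lower, against 13.0% and 14.8% of all genes tested, with a median of -0.33. Ube2h stood at -1.41 ± 0.29 and Rps27a, a fusion of ubiquitin with a ribosomal protein and so a member of both lists, at -2.23 ± 0.36. Ube2a was higher at 1.16 ± 0.30. Among SR proteins and hnRNPs, of 44 tested, 4 were called higher and 9 lower, with a median of -0.11. Hnrnpa1, a splicing repressor that is also a TOP mRNA, stood at -1.97 ± 0.34, Srsf7 at -1.77 ± 0.30 and Srsf10 at -1.75 ± 0.30, while Sfpq stood at 1.19 ± 0.27. The list of ZFP36 and other RNA-binding regulators was even, with 5 of 34 higher and 5 lower. Ddx6, a helicase of mRNA storage, stood at 1.72 ± 0.27 and Elavl1, which stabilises mRNAs, at 1.5 ± 0.28. Pabpc4, a poly(A) binding protein, had 2 and 1 footprint counts and 1474 and 1160 RNA-seq counts, a footprint level lower by a ratio of 21.6 (95% counting interval 7.4 to 105). Ddx6, Pabpc4, Rps27a and Sfpq overlap another annotated gene. Ddx6, Elavl1, Sfpq and Ube2h lost their calls without RNA-seq library 1 or RNA-seq library 3 (adjusted p from 0.0752 to 0.285). Hnrnpa1, Rps27a, Srsf10 and Srsf7 lost their calls without RNA-seq library 1 (adjusted p from 0.0592 to 0.11). Ube2a lost its call without RNA-seq library 1 or RNA-seq library 3 or footprint library 3 (adjusted p from 0.0794 to 0.271). For ubiquitin genes and E2 enzymes, calls were 0 higher and 0 lower of 24 without RNA-seq library 1, 0 higher and 3 lower of 24 without RNA-seq library 3 and 1 higher and 11 lower of 24 without footprint library 3. For SR proteins and hnRNPs, calls were 0 higher and 0 lower of 44 without RNA-seq library 1, 0 higher and 4 lower of 44 without RNA-seq library 3 and 6 higher and 14 lower of 44 without footprint library 1. For ZFP36 and RNA-binding regulators, calls were 0 higher and 3 lower of 34 without RNA-seq library 1, 0 higher and 4 lower of 34 without RNA-seq library 3, 3 higher and 5 lower of 33 without footprint library 1 and 9 higher and 6 lower of 34 without footprint library 3. SR proteins and hnRNPs had a median of the other sign, 0.0077 without RNA-seq library 1.

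Calls among glycolytic enzymes were mostly lower. Of 15 tested, 1 was called higher and 4 lower, against 13.0% and 14.8% of all genes tested, with a median of -0.57. Gapdh had 144 and 243 CPM in footprints and 611 and 539.5 in RNA-seq (-1.58 ± 0.33, adjusted p = 0.0183), Eno1 stood at -1.4 ± 0.28 and Ldha at -0.98 ± 0.25, while the lactate carrier gene Slc16a1 stood at 2.43 ± 0.44. In the actin cytoskeleton, of 45 tested, 14 were called higher and 3 lower, with a median of 0.35. The 2 cytoplasmic actins, which differ in few residues, were on opposite sides. Actb had 7901 and 8181 CPM in footprint libraries 1 and 3 and 2925 and 3920.1 CPM in RNA-seq libraries 1 and 3 (1.23 ± 0.36, adjusted p = 0.0498), and Actg1 had 241 and 239 CPM in footprints and 1359.9 and 1367 in RNA-seq (-2.51 ± 0.29, adjusted p = 0.00376). Their coding sequences are alike enough that short footprints may match both, so the split between them is uncertain. Actr2, of the Arp2/3 complex, stood at 1.74 ± 0.28, Dock8, an exchange factor, at 1.44 ± 0.24 and Vcl, vinculin, at 1.89 ± 0.29. Over the 29 members that overlap no other gene the median was -0.09, with 4 called higher and 2 lower. Among heat shock chaperones, of 26 tested, 5 were called higher and 2 lower. Hspa9 stood at 1.41 ± 0.25, Stip1 at 1.1 ± 0.27, Cct6a at 1.09 ± 0.27 and Dnajb6 at -1.9 ± 0.32. Actb, Actg1, Cct6a, Dnajb6, Dock8, Hspa9, Ldha and Vcl overlap another annotated gene. Actb lost its call without RNA-seq library 1 or RNA-seq library 3 or footprint library 1 or footprint library 3 (adjusted p from 0.0589 to 0.437). Actr2, Dock8, Eno1, Hspa9, Ldha and Vcl lost their calls without RNA-seq library 1 or RNA-seq library 3 (adjusted p from 0.0778 to 0.268). Cct6a and Stip1 lost their calls without RNA-seq library 1 or RNA-seq library 3 or footprint library 1 (adjusted p from 0.0515 to 0.323). Dnajb6 and Gapdh lost their calls without RNA-seq library 1 (adjusted p from 0.109 to 0.122). For glycolysis, calls were 1 higher and 0 lower of 16 without RNA-seq library 1 and 1 higher and 1 lower of 15 without RNA-seq library 3. For actin cytoskeleton, calls were 0 higher and 1 lower of 45 without RNA-seq library 1, 0 higher and 1 lower of 44 without RNA-seq library 3 and 16 higher and 5 lower of 45 without footprint library 3. For heat shock chaperones, calls were 0 higher and 0 lower of 24 without RNA-seq library 1, 0 higher and 5 lower of 26 without RNA-seq library 3 and 3 higher and 3 lower of 26 without footprint library 1.

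Among B lineage transcription factors, of 27 tested, 7 were called higher and 2 lower, against 13.0% and 14.8% of all genes tested. Their median was 0.46. Ikzf3, which encodes Aiolos, had 1067 and 589 CPM in footprints and 212 and 147 in RNA-seq (2.21 ± 0.38, adjusted p = 0.011). Elf1 stood at 1.97 ± 0.26 and Notch2, which directs marginal zone B cells, at 1.69 ± 0.26. Pou2f2, which encodes Oct-2, was lower at -1.23 ± 0.27 (adjusted p = 0.0209). Pax5 and Ebf1, the factors that commit cells to the lineage, were chosen after their values were seen and did not pass the test (-0.85 ± 0.26, adjusted p = 0.052, and 0.76 ± 0.25, adjusted p = 0.0684). Of 13 members that overlap no other gene, 1 was called higher, and their median was 0.02. Quiescence factors had 20 tested, 3 higher and 1 lower. Foxo1, a factor of resting lymphocytes, stood at 1.67 ± 0.34, the cell cycle inhibitor gene Cdkn1b at 1.29 ± 0.28 and Foxo4 at -1.47 ± 0.39. Klf2 and Btg1, which were given whatever their result, stood at -0.16 ± 0.39 and -0.50 ± 0.30 and were not called. Elf1, Ikzf3, Notch2, Pax5 and Pou2f2 overlap another annotated gene. Cdkn1b, Foxo1, Notch2 and Pou2f2 lost their calls without RNA-seq library 1 or RNA-seq library 3 (adjusted p from 0.0654 to 0.201). Elf1 lost its call without RNA-seq library 1 (adjusted p = 0.0528). Foxo4 lost its call without RNA-seq library 1 or RNA-seq library 3 or footprint library 1 or footprint library 3 (adjusted p from 0.0554 to 0.345). For B lineage transcription factors, calls were 1 higher and 0 lower of 27 without RNA-seq library 1, 2 higher and 0 lower of 28 without RNA-seq library 3, 9 higher and 5 lower of 28 without footprint library 1 and 8 higher and 5 lower of 27 without footprint library 3. For quiescence factors, calls were 0 higher and 0 lower of 21 without RNA-seq library 1, 0 higher and 0 lower of 19 without RNA-seq library 3 and 6 higher and 1 lower of 21 without footprint library 1.

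Fos, Jun and Nr4a3 differed widely between the footprint libraries. Fos had 243 and 17 footprint counts and 5136 and 7736 RNA-seq counts, so that library 1 held most of its footprints (-0.36 ± 0.91, adjusted p = 0.794), and Jun had 293 and 68 footprint counts and 12014 and 6698 RNA-seq counts (-0.41 ± 0.62, adjusted p = 0.65). Junb and Egr1 stood at 0.39 ± 0.38 and -0.32 ± 0.45, not called. Of 25 tested, 7 were called higher and 0 lower, with a median of 0.00. Of these 7, Nr4a3, Fosl2, Crem and Nr4a2 had mean mRNA levels from 4.86 to 9.44 CPM. They passed the filter of 20 CPM only through footprints, so they could only lie higher. Nr4a1, an orphan nuclear receptor induced by antigen receptor signals, had 1033 and 1704 CPM in footprints and 376 and 289.5 in RNA-seq (2.04 ± 0.36, adjusted p = 0.0116). Nr4a3 had 3 and 40 footprint counts and 50 and 37 RNA-seq counts, with nearly all footprints in library 3 (4.37 ± 0.96, adjusted p = 0.0219), and Crem stood at 3.97 ± 0.49. In the NF-kappaB list, of 23 tested, 1 was called higher and 1 lower: Nfkbiz at 1.38 ± 0.38 and Relb at -0.93 ± 0.26. Mcl1, a short-lived survival protein, stood at -0.35 ± 0.31 (adjusted p = 0.426). Crem overlaps another annotated gene. Nfkbiz lost its call without RNA-seq library 1 or RNA-seq library 3 or footprint library 3 (adjusted p from 0.139 to 0.196). Nr4a1 and Relb lost their calls without RNA-seq library 1 or RNA-seq library 3 (adjusted p from 0.0626 to 0.356). Nr4a3 lost its call without RNA-seq library 1 (adjusted p = 0.0704). Without footprint library 3, Nr4a3 fell below 20 CPM and was not tested. For AP-1, EGR and immediate-early factors, calls were 1 higher and 0 lower of 25 without RNA-seq library 1, 4 higher and 1 lower of 25 without RNA-seq library 3, 7 higher and 4 lower of 25 without footprint library 1 and 4 higher and 1 lower of 22 without footprint library 3. For NF-kappaB subunits and feedback, calls were 2 higher and 2 lower of 23 without footprint library 1 and 0 higher and 2 lower of 23 without footprint library 3. AP-1, EGR and immediate-early factors had a median of the other sign, 0.38 without RNA-seq library 1 and 0.23 without footprint library 3.

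Chromatin regulators and other very large proteins had more footprints than mRNA in most members tested. Of 29 tested, 13 were called higher and 0 lower, against 13.0% and 14.8% of all genes tested, with a median of 0.88. Crebbp, a histone acetyltransferase, had 309 and 331 CPM in footprint libraries 1 and 3 and 85.3 and 73.5 CPM in RNA-seq libraries 1 and 3 (2.01 ± 0.24, adjusted p = 0.00429). Birc6, a giant ubiquitin ligase, had 521 and 458 CPM in footprints and 115 and 92.6 in RNA-seq (2.24 ± 0.26, adjusted p = 0.00379), and Utrn, utrophin, stood at 2.53 ± 0.28. In the list of cyclins, MCM helicase and proliferation genes, of 19 tested, 4 were called higher and 2 lower, with a median of 0.76. Ccnd2, the D cyclin of B cells, stood at 1.36 ± 0.31, the helicase subunits Mcm5 and Mcm2 at 0.93 ± 0.23 and 0.88 ± 0.25, and the repressor E2f4 at -2.09 ± 0.40 from 4 and 8 footprint counts and 957 and 1127 RNA-seq counts. Ccnd2 and Utrn overlap another annotated gene. Ccnd2 lost its call without RNA-seq library 1 or RNA-seq library 3 or footprint library 3 (adjusted p from 0.0565 to 0.241). E2f4 and Mcm5 lost their calls without RNA-seq library 1 or RNA-seq library 3 (adjusted p from 0.0505 to 0.373). Mcm2 lost its call without RNA-seq library 1 or RNA-seq library 3 or footprint library 1 (adjusted p from 0.068 to 0.416). For chromatin and large nuclear proteins, calls were 5 higher and 0 lower of 29 without RNA-seq library 1 and 7 higher and 0 lower of 29 without RNA-seq library 3. For G1 cyclins, MCM helicase and proliferation, calls were 0 higher and 0 lower of 19 without RNA-seq library 1, 0 higher and 1 lower of 19 without RNA-seq library 3 and 2 higher and 2 lower of 19 without footprint library 3.

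**Figure D4:**
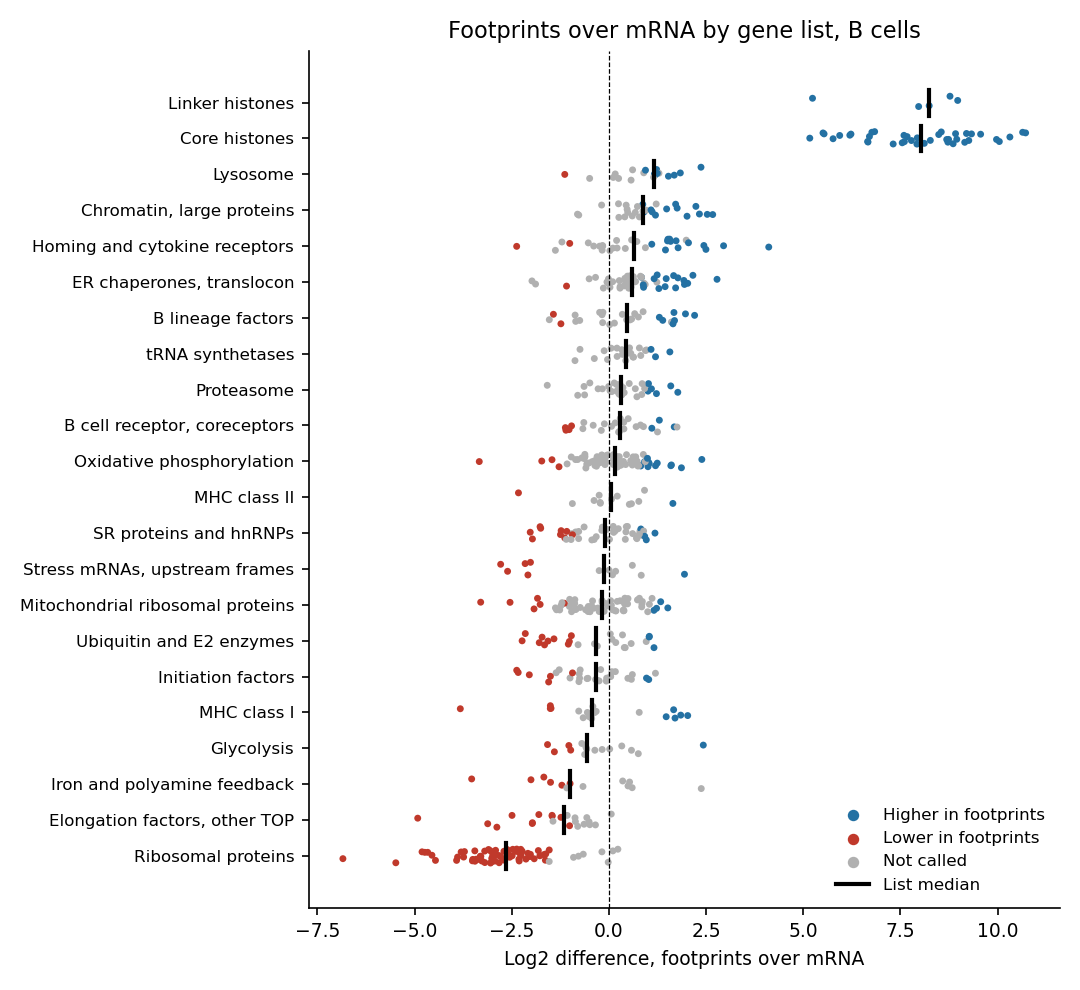
Log2 difference of footprints over mRNA for the tested members of 22 gene lists, 1 point per gene, blue where called higher, red where called lower and grey where not called, with a black bar at the list median. Ribosomal proteins sit at a median of -2.66, core histones at 8.02, and most other lists lie within 1 unit of 0.

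Histone genes took a far larger share of the footprint counts than of the RNA-seq counts. All 40 core histone genes tested, of 62 listed, and all 5 linker histones tested, of 6, were called higher, with medians of 8.02 and 8.24. Of all genes tested, 13.0% were called higher. Hist1h1c apart, their RNA-seq levels were too low to pass the filter of 20 CPM without footprints. Only members high in footprints could therefore be tested. Core histones took 0.64% and 1.0% of the counts in footprint libraries 1 and 3 but 0.00928% and 0.0072% in RNA-seq libraries 1 and 3. Hist1h4d had 110 and 126 footprint counts and 22 and 17 RNA-seq counts, which is 466 and 614 CPM in footprints and 2.47 and 1.89 in RNA-seq (7.93 ± 0.36, adjusted p = 0.000365). Hist1h1c had 3040.1 and 3881 CPM in footprints and 104 and 79.4 in RNA-seq (5.24 ± 0.39, adjusted p = 0.00115) and Hist1h1e 889 and 1139 CPM in footprints and 4.6 and 3.45 in RNA-seq (7.97 ± 0.38). Replication-dependent histone mRNAs end in a stem-loop instead of a poly(A) tail, and the RNA-seq kit selects poly(A) RNA, so a low RNA-seq value need not be a low mRNA level for them. How far this moves their ratio was not tested. Replacement histones, whose mRNAs are polyadenylated, lay nearer 0. Of 8 tested, 1 was called higher and 1 lower, with a median of -0.42. H3f3b, which encodes H3.3, had 483 and 643 CPM in footprints and 2719 and 1705 in RNA-seq (-1.98 ± 0.38, adjusted p = 0.0145), and H2afx, which has both kinds of transcript end, stood at 1.58 ± 0.38 (adjusted p = 0.0286). Histone genes are near-identical copies, so the split between single genes is uncertain. Polyadenylated replacement histones had a median of the other sign, 0.031 without footprint library 1.

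Other histone genes high in the ranking had low mRNA levels, at most 2.29 CPM among those named here, in Hist1h1d. Hist1h2af stood at 10.72 ± 0.53, Hist1h4j at 9.97 ± 0.36, Hist1h3h at 10.04 ± 0.64, Hist1h1a at 8.97 ± 0.45 and Hist1h1d at 8.24 ± 0.46. Hist1h2bn had 23 and 35 footprint counts and 1 and 0 RNA-seq counts, a ratio of 2354 (95% counting interval 422 to 92959), Hist1h4f a ratio of 1562 (95% counting interval 432 to 12900) and Hist1h2bf of 676 (95% counting interval 231 to 3279). Hist1h2bm, Hist1h3f, Hist1h2be and Hist1h4n stood at 9.33 ± 0.74, 9.26 ± 0.66, 9.15 ± 0.46 and 8.92 ± 1.39, the last with 6 and 113 footprint counts and 6 and 4 RNA-seq counts. Ttyh1, a chloride channel gene, was the other protein-coding gene in the top 12, with 289 and 411 footprint counts and 0 and 3 RNA-seq counts and a ratio of 9468 (95% counting interval 3239.8 to 45912). Hist1h2be and Ttyh1 overlap another annotated gene. H2afx lost its call without RNA-seq library 1 or RNA-seq library 3 (adjusted p from 0.0711 to 0.167). H3f3b lost its call without RNA-seq library 1 (adjusted p = 0.113). Without footprint library 3, Hist1h4n fell below 20 CPM and was not tested. For polyadenylated replacement histones, calls were 1 higher and 4 lower of 8 without footprint library 3.

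Short structured RNAs gave the largest values of all. All 53 small nuclear and nucleolar RNA genes tested were called higher, against 13.0% of all genes tested. With almost no RNA-seq counts, they passed the filter of 20 CPM only through footprints, so the filter fixed this result. Rnu11, the U11 RNA of the minor spliceosome, had 157 and 196 footprint counts and 0 and 0 RNA-seq counts and was at least 4835-fold higher, measured against 3 counts over both RNA-seq libraries. Rnu5g had 74 and 1006 footprint counts and 0 and 0 RNA-seq counts and was at least 15564-fold higher, with most counts in library 3. Snora21, in an intron of Rpl23, had 813 and 1556 footprint counts and 2 and 3 RNA-seq counts, and Snora23 119 and 761 footprint counts and 1 and 0 RNA-seq counts. Snora47 and the microRNA gene Mir6481 were at least 2634-fold higher and at least 3322-fold higher. Of the other structured RNAs, 7 of 7 tested were higher, with a median of 10.17 when genes without RNA-seq counts are set at their bound. They too could pass the filter only through footprints. Vaultrc5, a vault RNA, had 532 and 537 footprint counts and 1 and 2 RNA-seq counts, a ratio of 14459 (95% counting interval 4948 to 70114), and Rpph1, the RNA of RNase P, was at least 1149-fold higher. These RNAs have no reading frame, and a footprint library selects RNA by fragment size and a poly(A) kit by its tail, so their counts are not counts of ribosomes. Mir6481, Rnu5g, Snora21, Snora23 and Snora47 overlap another annotated gene.

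Long RNAs without a reading frame lay low. Among 68 long noncoding RNA genes tested, 40 were lower and 4 higher, with a median of -3.23, and 23 had no footprint count. Of all genes tested, 14.8% were called lower and 13.0% higher. Those without a footprint count passed the filter of 20 CPM only through RNA-seq, so they could only lie lower. Malat1, a nuclear RNA, had 71.98 and 77.9 CPM in footprint libraries 1 and 3 and 450.0 and 466 CPM in RNA-seq libraries 1 and 3 (-2.61 ± 0.27, adjusted p = 0.00273). Neat1, the scaffold of paraspeckles, had 1 and 1 footprint counts and 605 and 1462 RNA-seq counts, a footprint level lower by a ratio of 25.5 (95% counting interval 7.05 to 210.3). Junos, next to Jun, had 0 and 0 footprint counts and 1453 and 874 RNA-seq counts and was at least 19.1-fold lower. Host transcripts of small nucleolar RNAs, several of them TOP transcripts with no long frame, had 11 tested, 2 higher and 2 lower. The 2 higher were Dancr and Cct6a, and Cct6a is a protein-coding gene that is also on the list of heat shock chaperones. Gas5 had 67.7 and 136 CPM in footprints and 254 and 195 in RNA-seq (-1.15 ± 0.37, adjusted p = 0.0631) and Snhg1 stood at -0.96 ± 0.35, neither called. Zfas1 had 4 and 6 footprint counts and 1365 and 1012 RNA-seq counts (-2.54 ± 0.40, adjusted p = 0.00833), and Snhg8 a footprint level lower by a ratio of 13.04 (95% counting interval 3.61 to 108). Dancr, with 6 and 66 footprint counts and 2 and 1 RNA-seq counts, was higher by a ratio of 974 (95% counting interval 333 to 4722) and contains Snora26, whose own reads may be counted in it. BC051537, with 0 and 0 footprint counts and 1853 and 2038 RNA-seq counts, was at least 31.96-fold lower. BC051537, Dancr, Gas5, Malat1, Snhg1, Snhg8 and Zfas1 overlap another annotated gene. Snhg8 and Zfas1 lost their calls without RNA-seq library 1 (adjusted p from 0.0577 to 0.0605). Neat1 lost its call without footprint library 1 or footprint library 3 (adjusted p from 0.0513 to 0.0643). Without footprint library 3, Dancr fell below 20 CPM and was not tested. For nuclear long noncoding RNAs, calls were 0 higher and 1 lower of 3 without footprint library 1. For snoRNA host transcripts, calls were 1 higher and 0 lower of 11 without RNA-seq library 1, 1 higher and 2 lower of 11 without RNA-seq library 3, 1 higher and 2 lower of 10 without footprint library 1 and 1 higher and 4 lower of 9 without footprint library 3.

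Protein-coding genes with much mRNA and no footprint mostly overlapped another gene. Of 39 such genes 74.4% share part of their span with another annotated gene, against 45.9% of the 6613 protein-coding genes tested. Tlcd1 had 0 and 0 footprint counts and 15269 and 12344 RNA-seq counts and was at least 227-fold lower, set against 3 footprint counts over both libraries, and it overlaps Rpl23a, which had 48 and 65 footprint counts and 17660 and 14316 in RNA-seq. Wdr38, at least 114-fold lower from 0 and 0 footprint counts and 7482 and 6361 RNA-seq counts, overlaps Rpl35, with 9729 and 8348 RNA-seq counts. Slc26a10, which overlaps B4galnt1, was at least 47.8-fold lower. Snx22, which overlaps Ppib, was at least 28.4-fold lower, Avpr2, over Arhgap4, at least 22.8-fold lower and Map3k12, over Pcbp2, at least 22.03-fold lower. Cand2, which overlaps Rpl32, had 1 and 1 footprint counts and 2390 and 1910 RNA-seq counts, lower by a ratio of 52.98 (95% counting interval 14.7 to 438), and Tctn1, which overlaps Hvcn1, stood at -5.94 ± 0.37. Whether their RNA-seq counts belong to the neighbour was not tested, and none of them is read as an untranslated mRNA. Pde6h, a phosphodiesterase subunit of cone cells, overlaps no annotated gene and had 0 and 0 footprint counts and 5143 and 5963 RNA-seq counts, at least 91.2-fold lower. The clone-named gene CT010467.1, which has no RefSeq class, was at least 315-fold lower from 0 and 0 footprint counts and 20917 and 17413 RNA-seq counts.

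Among pseudogenes 31 of 38 were lower and 24 had no footprint count once Gm42418 is left out, against 14.8% lower of all genes tested. Those without a footprint count passed the filter of 20 CPM only through RNA-seq, so they could only lie lower. They took 0.134% and 0.276% of footprint libraries 1 and 3 and 1.03% and 1.0% of RNA-seq libraries 1 and 3. Antigen receptor segments lay on the other side. Of 118 variable segments 58 were higher and 0 lower, with a median of 1.85, against 13.0% higher of all genes tested. Several of these segments had mRNA under 20 CPM, such as Igkv14-130 (3.07 mRNA and 46.8 footprint CPM) and Ighv2-3 (8.50 and 96.6). Such segments passed the filter only through footprints, so they could only lie higher. Others had more mRNA, such as Ighv9-3 (49.7 mRNA and 493 footprint CPM). Of 10 joining segments, all of immunoglobulin genes, 10 were higher, with a median of 6.14. The RNA-seq levels of these 10 were too low to pass the filter without footprints, so only segments high in footprints could be tested. Joining segments are shorter than most RNA-seq fragments, and short footprints can lie within them. Whether this moves their ratio was not tested. Of 14 constant regions 2 were higher: Ighg2c had 2659 and 7368 CPM in footprints and 961 and 206 in RNA-seq (3.1 ± 0.85, adjusted p = 0.0409), and Ighg2b had 3544 and 4076 CPM in footprints and 937 and 213 in RNA-seq (2.73 ± 0.70, adjusted p = 0.0333). In both, RNA-seq library 1 was several times higher than library 3. Ighg2b and Ighg2c overlap another annotated gene. Ighg2b lost its call without RNA-seq library 3 or footprint library 1 or footprint library 3 (adjusted p from 0.0537 to 0.0877). Ighg2c lost its call without RNA-seq library 3 or footprint library 3 (adjusted p from 0.0657 to 0.114).

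Markers of other cells differed between the libraries. Neutrophil markers summed to 8.47 CPM in footprint library 1 and 828 in library 3, against 95.0 and 15.4 in RNA-seq libraries 1 and 3, with 2 of 11 and 7 of 11 markers counted in the footprint libraries. Mpo and Elane went the other way and were not tested. Mpo had 0 and 0 footprint counts and 621 and 0 RNA-seq counts, and Elane 0 and 0 footprint counts and 206 and 2 RNA-seq counts. All 4 neutrophil markers tested, Ltf among them, were called higher, against 13.0% of all genes tested. Their RNA-seq levels were too low to pass the filter of 20 CPM without footprints, so they could only lie higher. S100a9 had 1 and 65 footprint counts and 9 and 63 RNA-seq counts (5.27 ± 1.37, adjusted p = 0.035), S100a8 1 and 36 footprint counts and 8 and 37 RNA-seq counts (5.11 ± 1.35) and Ngp 0 and 26 footprint counts and 1 and 2 RNA-seq counts, so these calls rest on footprint library 3. Natural killer cell markers summed to 97.4 and 726 CPM in footprints and 30.6 and 124 in RNA-seq. Gzma had 10 and 53 footprint counts and 50 and 203 RNA-seq counts (3.38 ± 0.94, adjusted p = 0.0415), and Prf1 5 and 23 footprint counts and 47 and 111 RNA-seq counts (2.88 ± 0.82, adjusted p = 0.0452). With mean mRNA levels of 14.1 and 8.80 CPM, Gzma and Prf1 also passed the filter only through footprints. Cd3e had 1 and 12 footprint counts and 34 and 327 RNA-seq counts (0.58 ± 1.43, adjusted p = 0.789). Summed macrophage markers were 910 and 355 CPM in footprints and 67.5 and 381 in RNA-seq, and erythroid markers 29.6 and 63.3 and 18.2 and 27.2. Their part in the values of other genes was not tested. Gzma overlaps another annotated gene. Gzma lost its call without RNA-seq library 1 or footprint library 3 (adjusted p from 0.126 to 0.351). Ngp, Prf1, S100a8 and S100a9 lost their calls without RNA-seq library 1 (adjusted p from 0.0521 to 0.168). Without footprint library 3, Ngp, Prf1, S100a8 and S100a9 fell below 20 CPM and were not tested.

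Among genes that overlap no other gene, are no histone and have at least 50 CPM over both assays, the order of the extremes was as follows. This choice was made after the values were seen. Lnpep, a peptidase that travels with the glucose carrier GLUT4, headed it with 98 and 68 footprint counts and 92 and 73 RNA-seq counts, which is 415 and 331 CPM in footprints and 10.3 and 8.11 in RNA-seq (5.34 ± 0.30, adjusted p = 0.000504). The zinc finger gene Zfp871 followed with 33 and 37 footprint counts and 83 and 49 RNA-seq counts (4.43 ± 0.38, adjusted p = 0.00151), then Nr4a3, Cxcr4 and Tlr9. Ahnak, a giant scaffold protein, had 88 and 299 footprint counts and 938 and 568 RNA-seq counts (3.44 ± 0.67, adjusted p = 0.0153), and Cltc, the clathrin heavy chain, 167 and 178 footprint counts and 1456 and 1425 RNA-seq counts (2.29 ± 0.26, adjusted p = 0.00379). At the low end, after Pde6h, stood Cep85 with 2 and 4 footprint counts and 3424 and 6257 RNA-seq counts (-5.3 ± 0.56, adjusted p = 0.00287), then Rps15a with 11 and 23 footprint counts and 22292 and 16930 RNA-seq counts (-4.81 ± 0.50, adjusted p = 0.00273), Ubxn11 (-4.67 ± 0.49) and Rps18. Cep85 and Ubxn11 lie close together on chromosome 4 (134129858 to 134187085 and 134102500 to 134126784). Whether reads of another transcript were counted in Pde6h, Cep85 or Ubxn11 was not tested. Of the 25 lowest genes of this choice, 12 encode ribosomal proteins, and of the 25 highest 0 do. Lnpep, Zfp871, Nr4a3 and Tlr9 had under 50 CPM in RNA-seq, and Pde6h, Cep85 and Ubxn11 under 50 CPM in footprints. Such genes reach a mean of 50 CPM only through the assay in which they are high, so the level asked for fixed their direction.

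Genes along the ranking differed in length and abundance. The 6613 protein-coding genes were cut into 10 equal groups. From the fewest to the most footprints per mRNA, the groups' median mRNA level went from 82.0 to 28.4 CPM and the median footprint level from 17.0 to 111 CPM. Both levels enter the ratio, so this is a description of how it is made up. The median span of the gene on the genome, introns included, was 11929 bases in the lowest group, 22637 in the fifth and 33607 in the highest. Coding length was not used here. The share of genes that overlap another gene was 51.1% in the lowest group and 43.7% in the highest.

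**Figure D5:**
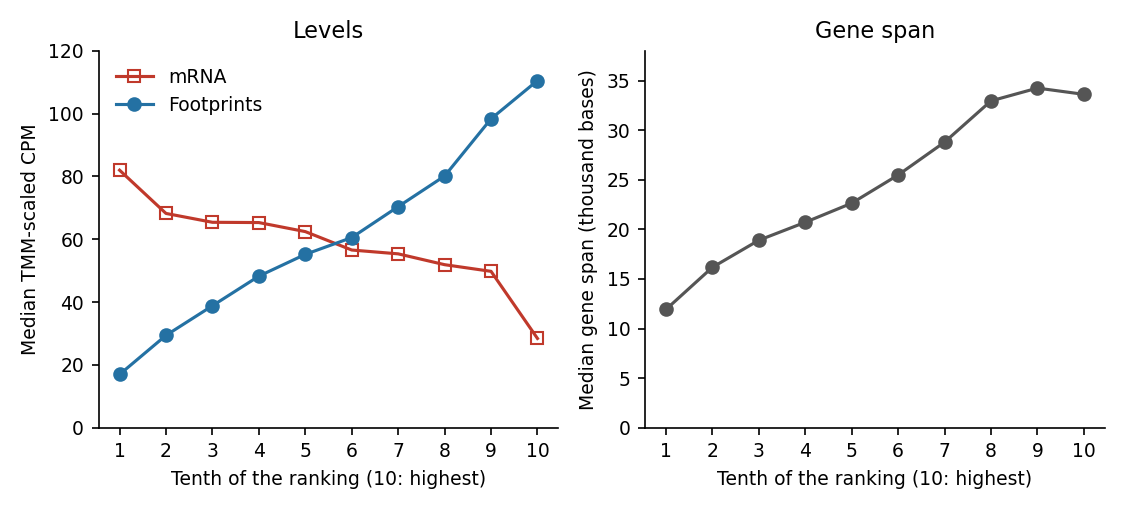
Medians over 10 equal groups of the ranking of 6613 protein-coding genes, from the lowest (1) to the highest (10) footprints over mRNA: TMM-scaled CPM in both assays on the left and gene span on the genome on the right. The mRNA median is 82.0 CPM in the lowest group and 28.4 in the highest, while the gene span is longest in the ninth.

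The same ratio in T cells was set beside that of B cells in a model of all 8 libraries, with the difference of the ratios tested for 7233 genes. The T cell footprint libraries 1 and 2 held 627833 and 136433 counts, and the RNA-seq libraries 1 and 4 held 10050986 and 8945905. None (0%) passed the adjusted p of 0.05 in edgeR, with 506 at an unadjusted p under 0.05 and a smallest adjusted p of 0.637, while DESeq2 called 5. The standard error of the difference had a median of 0.53 on the log2 scale. In this model 77 ribosomal protein genes had a median of -2.63 in B cells and -2.74 in T cells, where 70 were lower and 0 higher against 19.5% and 16.8% of all genes. Elongation and other TOP genes had medians of -1.17 and -1.41, endoplasmic reticulum genes 0.58 and 0.33, and receptors 0.70 and 1.0. Core histones had 7.91 and 7.42. Cxcr4 stood at 4.32 in T cells, a difference of -0.22 ± 0.48, and Tpt1 at -4.91, a difference of -0.02 ± 0.55. P2ry10 stood at 4.53 in T cells, a difference of -2.05 ± 0.48 with an adjusted p of 0.637. Fth1 stood at 0.12 in T cells, a difference of -1.34 ± 0.44, and Jun at -3.37, a difference of 2.94 ± 1.23, and neither passed the test. The immediate-early list had medians of -0.01 in B cells and -0.43 in T cells, and glycolysis -0.60 and -0.63.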

How the data were processed

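Ribosome footprints and polyadenylated RNA were sequenced from spleen B cells, in 2 libraries each. The deposited values are raw counts per gene and library, unnormalised, and the authors' tools were FastQC, Bowtie2, TopHat and HTSeq with the mm10 build, per the submitters' processing notes. Versions, settings, roles, strand use and the handling of reads with several matches were not given in the sources used here. Of 53801 gene IDs, 53620 had a symbol and 38371 a RefSeq gene class.

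Genes with a mean of at least 20 CPM, taken over the means of the 2 assays, were scaled by TMM and tested with edgeR 4.0.16 in R 4.3.3 (quasi-likelihood test, assay as the only term, 2 residual degrees of freedom, Benjamini-Hochberg adjustment over all genes tested, threshold 0.05). The difference between B and T cells was tested as the interaction of assay and cell type over all 8 libraries, with 4 residual degrees of freedom. The scripts were tested on simulated data. Against no counts, folds are bounds from 3 counts over both libraries of the assay. With 1 to 3 counts, the ratio of CPM has a 95% counting interval, which like the bounds covers counting error only. Correlations across genes carry no test.

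The genes and gene lists were chosen with earlier results of these data known. Named genes are the 12 protein-coding genes furthest in each direction among those called, with assays that do not overlap and at least 50 CPM, leaving out antigen receptor segments, predicted genes and pseudogenes. They also include the 6 furthest of other classes, up to 3 members of each list with the smallest p in its leading direction and 1 in the other, a fixed set of well known genes, and the 10 with the most footprints and the most mRNA. Genes outside this rule are said to be chosen after their values were seen, except the neighbours and paralogs given beside a named gene. Coding length was not used here. Alternatives were RLE and upper-quartile scaling, scaling or centring on protein-coding genes, DESeq2 1.42.0, limma 3.58.1 voom, a test against 1.5-fold, other filters, RNA-seq thinned to the depth of footprints, protein-coding genes alone, the replicate block, all 8 libraries in 1 model, and each library left out. Genes that overlap no other gene were fitted alone as a choice made after seeing the data. Some items are not reported here.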

Additional observations from a re-analysis of the deposited data

How the results depend on the processing

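In edgeR 1955 genes were called, and 0 of them was called with the other sign in any alternative. Tests with other scaling or tools called 1959 (RLE), 1995 (upper quartile), 2179 (DESeq2) and 1630 (limma voom). Upper-quartile scaling moved the median of all genes from -0.02 to -0.14. Calls numbered 1145 (496 higher, 649 lower) against 1.5-fold, 336 (163 and 173) with no filter beyond 1 count, 752 (338 and 414) at a mean of at least 100 CPM, 1285 (597 and 688) with RNA-seq thinned to the depth of footprints, and 957 (478 and 479) among genes that overlap no other. Leaving out 1 library at a time gave 573 to 2296 calls, 239 to 1067 of them higher and 334 to 1281 lower. Libraries of the same number did not deviate together (r of -0.09 over 7023 genes), so the number is not read as a pairing; with the replicate block 1426 genes were called, 637 higher and 789 lower. Of 193 named genes, 98 lost a call without RNA-seq library 1 and 66 without RNA-seq library 3, where 1 library stands for that assay, and 23 under the block.

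List medians that moved were those of the endoplasmic reticulum (0.47 with upper-quartile scaling, 0.46 with no filter, 0.53 to 0.74 without 1 library), ribosomal proteins (-3.26 to -2.40 without 1 library) and receptors (0.39 to 0.66 without 1 library, 0.26 among genes that overlap no other). Of 45 lists with a median, 19 changed sign in at least 1 alternative and 15 of them without 1 library. Without footprint library 1 the receptor complex went to -0.21, class II presentation to -0.26 and B cell markers to -0.18, and stress mRNAs went to 0.045 among genes that overlap no other. Other changes of sign included ZFP36 and RNA-binding regulators (-0.054 with upper-quartile scaling, -0.18 with no filter, -0.0087 in the model of 8 libraries, -0.012 to 0.20 without 1 library), oxidative phosphorylation (-0.00063 at 100 CPM), selenoproteins (-0.23 at 100 CPM, -0.094 to 0.20 without 1 library), SR proteins and hnRNPs (-0.27 to 0.0077 without 1 library), actin (-0.044 among genes that overlap no other), snoRNA hosts (0.31 with protein-coding genes alone, which leaves fewer members) and erythroid markers (-1.61 with no filter, which tests more members). The cause of the other shifts was not tested. The agreement of the assays had a Spearman rho of 0.37 at 100 CPM against 0.61. For the B and T cell difference DESeq2 called 5 genes and edgeR 0. A footprint count was worth 4.22 and 4.30 CPM in libraries 1 and 3, so a gene at 20 CPM rests on few counts in each footprint library.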
